A study of Drosophila melanogaster with 15 samples.

Results

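The genes chinmo, Imp, br and Eip93F, which act as temporal identity factors in larval tissues, were followed through normal and neoplastic growth of the Drosophila melanogaster wing disc. Their probe sets were taken by gene symbol. All 4 genes, of 11981 named on the array, had probe sets of their own, and these gave 14 of the 18952 probe sets in the deposited table (3 of chinmo, 4 of Imp, 5 of br and 2 of Eip93F). Each probe set is described separately, because probe sets of a gene read different stretches of its transcripts. By the array's naming, those ending in _s_at can hybridise to more than 1 transcript, and which isoform each one reads is not given in the sources used here.

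The wing disc is the larval epithelium that forms the wing and the notum of the adult. In avl-RNAi larvae rn-GAL4, which is active in the region of the disc that forms the wing blade, drove a UAS construct against avl (UAS Avl RNAi, on 1 chromosome with Rn-GAL4 and heterozygous). The product of avl, also called Syx7, is a syntaxin of early endosomes. Control larvae had Rn-GAL4/+ without that construct, so both genotypes carried rn-GAL4 and elav-GAL80, an inhibitor of GAL4 under a neuronal promoter, as elav-GAL80/+, in a w- line of w1118 background. The 5 groups were avl-RNAi discs (92, 116 and 168 h after egg deposition) and control discs (92 and 116 h), all from larvae of the third instar raised at 25C, with 3 samples and 1 array per sample in each group. The labels give the morphology as neoplastic for avl-RNAi discs and as wild type for control discs. There were no control discs at 168 h. Whole discs were measured although the driver acts in a part of the disc, and the number of discs pooled in a sample is not given in the sources used here. The labels say only that samples were separate. The p-values weigh differences of group means against the spread between these samples, and whether that is a spread between animals or between pools is not known.

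Larval, pupal and adult programmes of insect epithelia follow each other in time, and a small set of transcription factors is known for setting them. The BTB zinc finger protein Chinmo is typical of young, growing larval tissue, the ecdysone-induced Broad proteins specify the pupal stage, and the ecdysone-induced factor E93, the product of Eip93F, specifies the adult stage. Imp encodes an RNA-binding protein that, in the fly's neural stem cells, acts with Chinmo in the early phase and gives way to the RNA-binding protein Syncrip later.

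Values are the log2 signals as deposited by the authors, and a difference of 1 is a 2-fold difference. Every array had a mean of 6.01, and the medians lay between 4.74 and 4.79. Over all probe sets, 2 arrays of a group correlated at 0.994 to 0.998 and arrays of different groups at 0.970 to 0.996 (Pearson, a description over probe sets). All 13 measured wing disc markers (among them vg, nub, rn and ap) lay above the array median on all 15 arrays. The mean of 15 gut transcripts set 2 control arrays apart from their groups: it was 5.01 in replicate 3 of the 92 h controls, against 7.10 and 6.99 in the other two, and 6.95 in replicate 2 of the 116 h controls, against 4.93 and 4.83 in the other two. Other lists also spread within groups. Fat body means (3 genes) were 11.27, 10.17 and 8.88 in control discs and 9.54, 11.29 and 9.33 in avl-RNAi discs at 116 h. Haemocyte means were 5.46, 5.89 and 6.996 in avl-RNAi discs at 116 h. Calls of the 4 genes, usp and Hr39 that ended without both control arrays with unusual gut transcripts are given with both values. The level of avl itself was not analysed here.

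Of the 14 probe sets, 10 gave clear signal and 4 were dim. The dim ones were chinmo 1636985_s_at (3.81 to 4.32 over the 15 arrays), Imp 1633352_at (4.18 to 4.78) and both Eip93F probe sets. Eip93F 1635485_at read 3.63 to 4.04 and 1624441_at read 3.37 to 3.54. These Eip93F signals stayed low in every group, including avl-RNAi discs at 168 h, the oldest discs measured, and a low probe signal does not give the level of the transcript. The probe sets with the highest mean of their gene were br 1635691_at (11.13 to 12.35), Imp 1630309_s_at (10.10 to 11.34) and chinmo 1628005_at (6.65 to 10.98). Chinmo had the widest range, 4.33 and 4.42 log2 units on its bright probe sets, against at most 2.17 units for any br probe set and 1.50 for any Imp probe set.

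**Figure D1:**
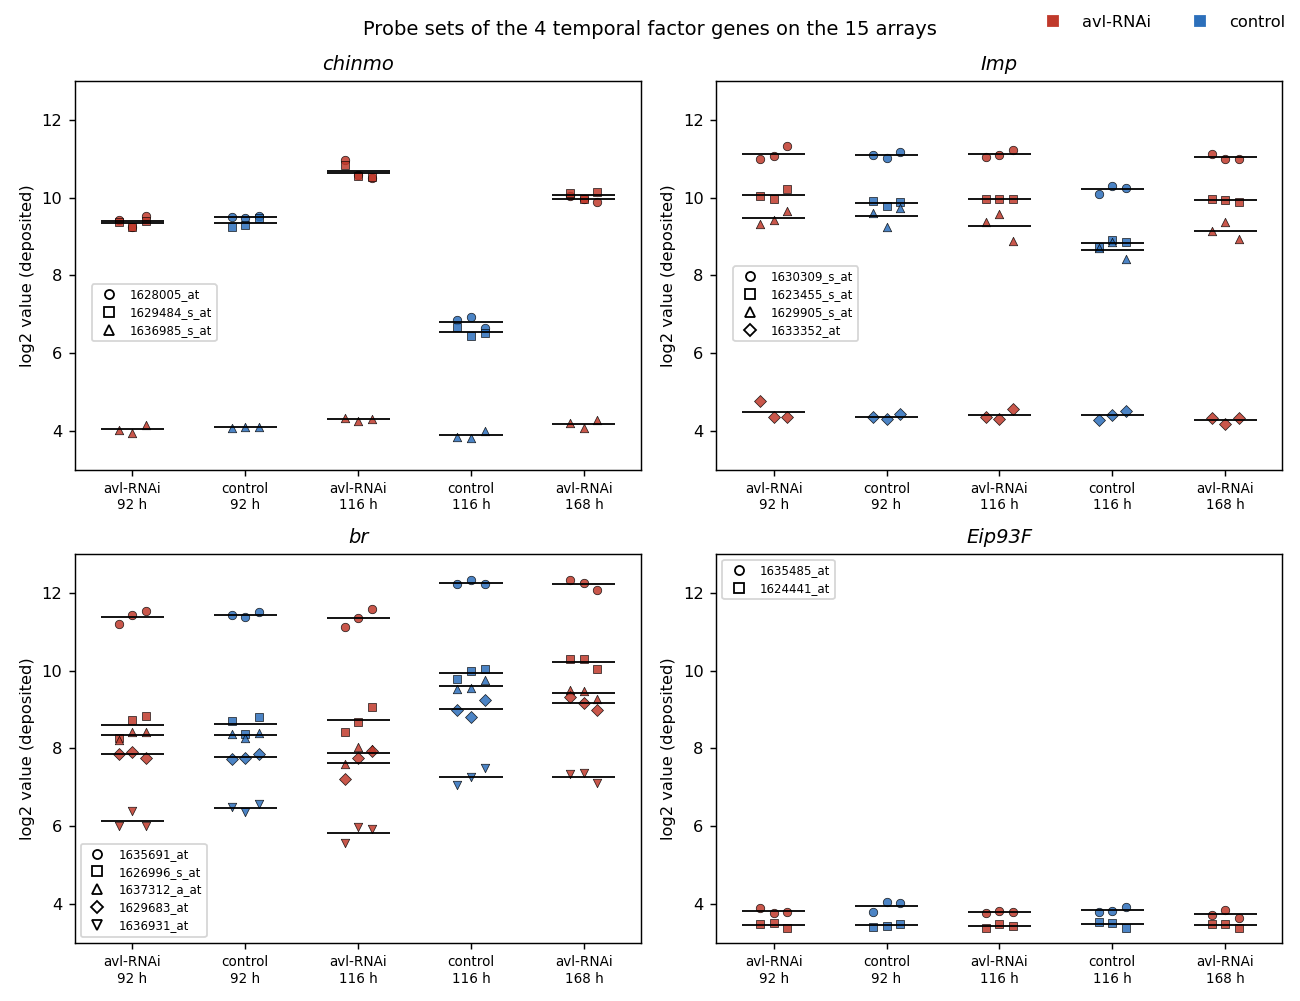
Deposited log2 values (y axis) of the 14 probe sets of chinmo, Imp, br and Eip93F in the 5 groups of arrays (x axis), with avl-RNAi discs in red and control discs in blue. Marker shapes are probe sets, points within a group are replicates 1 to 3 from left to right, and bars are group means. Both bright chinmo probe sets are lowest in control discs at 116 h, all br probe sets are high in 168 h avl-RNAi discs and 116 h control discs, and the Eip93F probe sets stay at 4.04 or below.

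At 92 h the comparison asked whether the knockdown had already altered these genes in young discs of the third instar. No probe set of the 4 genes passed the test. Chinmo 1628005_at read 9.42, 9.25 and 9.54 in avl-RNAi discs, against 9.51, 9.49 and 9.54 in control discs. Imp 1630309_s_at read 10.99, 11.06 and 11.34 in avl-RNAi discs and 11.10, 11.03 and 11.18 in control discs. The arrays of the 2 genotypes overlapped for both genes. Br 1635691_at likewise read 11.20, 11.44 and 11.54 in avl-RNAi discs and 11.44, 11.39 and 11.51 in control discs.

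The moderated test of limma, fitted over all 18769 probe sets that are not controls and called at an adjusted p under 0.05, called 0 of the 14 at 92 h, where 3.43% of all probe sets were called. At an unadjusted p under 0.05 there were 2, Imp 1623455_s_at (higher by 0.22 ± 0.067 SE, adjusted p = 0.110) and br 1636931_at (a difference of -0.35 ± 0.14, adjusted p = 0.227). The 95% interval of the difference ran from -0.35 to 0.13 for chinmo 1628005_at and from -0.29 to 0.18 for br 1635691_at. These intervals do not exclude differences within them. Muscle array means were 8.47 to 8.95 in avl-RNAi discs and 7.78 to 8.19 in control discs at 92 h. Of 8 muscle genes 0 were called, and 7 were higher at an unadjusted p under 0.05. With the mean gut, muscle and fat body signals of each array as covariates, 0 of the 14 probe sets were called. Chinmo 1628005_at gave -0.40 ± 0.13 in that fit (adjusted p = 0.236).

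Control discs at 116 h were set against control discs at 92 h to follow the 4 genes in normal discs. Neither Eip93F probe set was called. Between the ages chinmo fell 6.54-fold and 6.96-fold on its bright probe sets, Imp fell 1.82-fold to 2.05-fold on its 3 bright probe sets, and br rose 1.73-fold to 2.49-fold. Chinmo 1628005_at read 6.84, 6.92 and 6.65 in control discs at 116 h, against 9.51, 9.49 and 9.54 at 92 h. Chinmo 1629484_s_at read 6.66, 6.43 and 6.51 at 116 h, against 9.24, 9.30 and 9.46 at 92 h. The ages did not overlap, and all 3 older samples lay more than 2 log2 units below the younger ones. The differences were -2.71 ± 0.11 (adjusted p = 1.61e-09) and -2.80 ± 0.094 (adjusted p = 3.44e-10). They were the 17th and the 14th from the lowest of the 18769 differences.

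Imp, the RNA-binding partner, fell less. Imp 1630309_s_at read 10.10, 10.30 and 10.25 in control discs at 116 h, against 11.10, 11.03 and 11.18 at 92 h, a difference of -0.89 ± 0.088 (adjusted p = 5.96e-06). Imp 1623455_s_at fell by 1.04 ± 0.067 and Imp 1629905_s_at by 0.86 ± 0.18, and in each case the ages did not overlap. The dim Imp 1633352_at differed by 0.03 ± 0.11 and was not called. Br, the pupal specifier, moved the other way on all 5 probe sets. Br 1635691_at read 12.23, 12.33 and 12.24 in control discs at 116 h, against 11.44, 11.39 and 11.51 at 92 h. The rises of br were 0.82 ± 0.11, 1.32 ± 0.17 (1626996_s_at), 1.28 ± 0.11 (1637312_a_at), 1.24 ± 0.15 (1629683_at) and 0.79 ± 0.14 (1636931_at), with adjusted p from 2.04e-06 to 0.000762.

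In all, 11 of the 14 probe sets were called with age in control discs (5 higher, 6 lower), where 19.9% of all probe sets were called (9.9% higher and 10% lower). Neither Eip93F probe set was among them, with differences of -0.11 ± 0.072 and 0.03 ± 0.057. The dim chinmo 1636985_s_at was called at an adjusted p of 0.0497 (-0.20 ± 0.067) and kept that call in 6 of 21 alternative analyses. Without either single control array with unusual gut transcripts its adjusted p was 0.117 or 0.171, and without both it was 0.278. All 8 measured muscle genes also fell with age in control discs, to array means of 6.17 to 6.97 at 116 h, against 7.78 to 8.19 at 92 h, while 6 of 13 wing disc markers and 3 of 4 adult muscle precursor markers rose. Their part in the result was not tested separately. With the mean gut, muscle and fat body signals of each array as covariates, 3 calls were left, those of the bright chinmo probe sets (-2.07 ± 0.21 and -2.57 ± 0.21) and of Imp 1623455_s_at (-0.82 ± 0.15). The br differences were 0.41 to 1.42 in that fit (SE 0.28 to 0.42), with adjusted p of 0.104 or more. The median standard error over all probe sets was 0.175 in that fit and 0.074 in the fit without covariates. RNA came from whole discs, so fewer cells of a type and less RNA per cell cannot be told apart in this or any comparison here.

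At 116 h, when control discs had low chinmo and high br, avl-RNAi discs had high chinmo and low br. Chinmo was 14.8-fold and 17.3-fold higher on its bright probe sets, Imp was 1.53-fold to 2.20-fold higher on its 3 bright probe sets, and br was 1.88-fold to 3.35-fold lower. Eip93F and the dim Imp 1633352_at (0.01 ± 0.11) did not pass the test.

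Chinmo 1628005_at read 10.98, 10.58 and 10.50 in avl-RNAi discs, against 6.84, 6.92 and 6.65 in control discs, a difference of 3.88 ± 0.11 (adjusted p = 1.40e-11). Chinmo 1629484_s_at read 10.85, 10.55 and 10.53 in avl-RNAi discs, against 6.66, 6.43 and 6.51 in control discs, a difference of 4.11 ± 0.094 (adjusted p = 2.49e-12). No array of one genotype came within 3 log2 units of the other on either probe set, and the differences were the 14th and the 8th from the highest of the 18769. The dim probe set 1636985_s_at differed in the same direction, by 0.41 ± 0.067 (adjusted p = 0.000407).

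Imp 1623455_s_at read 9.96, 9.97 and 9.96 in avl-RNAi discs, against 8.74, 8.90 and 8.85 in control discs, and was higher by 1.14 ± 0.067 (adjusted p = 2.00e-08). Imp 1630309_s_at read 11.04, 11.10 and 11.23 in avl-RNAi discs, against 10.10, 10.30 and 10.25 in control discs, and was higher by 0.91 ± 0.088 (adjusted p = 3.03e-06). The genotypes were apart on both. Imp 1629905_s_at, its other bright probe set, read 9.38, 9.58 and 8.88 in avl-RNAi discs, against 8.70, 8.85 and 8.43 in control discs. Its lowest avl-RNAi array lay just above its highest control array, and its difference of 0.62 ± 0.18 had an adjusted p of 0.0218. That call ended without avl-RNAi replicate 1 (adjusted p = 0.0780), without avl-RNAi replicate 2 (0.0974), without control replicate 3 (0.0998), with only the 2 compared groups in the fit (0.0585) and with the tissue covariates (0.910).

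Br 1637312_a_at had the largest difference of the gene, with 7.59, 8.05 and 7.995 in avl-RNAi discs, against 9.54, 9.56 and 9.76 in control discs (-1.74 ± 0.11, adjusted p = 5.16e-08). Br 1635691_at, the brightest, read 11.13, 11.35 and 11.60 in avl-RNAi discs, against 12.23, 12.33 and 12.24 in control discs (-0.91 ± 0.11, adjusted p = 2.53e-05). On all 5 br probe sets every avl-RNAi array lay below every control array. The differences of 1626996_s_at, 1629683_at and 1636931_at were -1.22 ± 0.17, -1.39 ± 0.15 and -1.44 ± 0.14.

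Of the 14 probe sets, 11 were called at 116 h, 6 higher and 5 lower, where 23.8% of all probe sets were called (9.58% higher and 14.2% lower). The muscle signal also differed, with array means of 7.20 to 7.72 in avl-RNAi discs, against 6.17 to 6.97 in control discs, and 6 of its 8 genes were called higher. Of the 13 wing disc markers 7 were called lower and 0 higher, with array means of 8.66 to 8.90 in avl-RNAi discs and 9.06 to 9.22 in control discs. Of 4 tracheal markers 3 were higher and 1 lower, with array means of 9.64 to 9.79 in avl-RNAi discs and 9.20 to 9.29 in control discs. The part of the wing disc and tracheal markers in the result was not tested. With the tissue covariates in the fit 10 of the 11 calls were kept, and the chinmo differences were 3.47 ± 0.16 and 3.92 ± 0.16. The 11 nervous system transcripts, where chinmo and Imp are also known to act, had array means of 4.77 to 4.79 in avl-RNAi discs and 4.71 to 4.80 in control discs. Limma called 0 of those 11 at 116 h, also at an unadjusted p under 0.05. Of the 11, 4 (para, ChAT, VAChT and cpx) lay below the array median on all arrays, and 3 lay above it on all arrays.

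**Figure D2:**
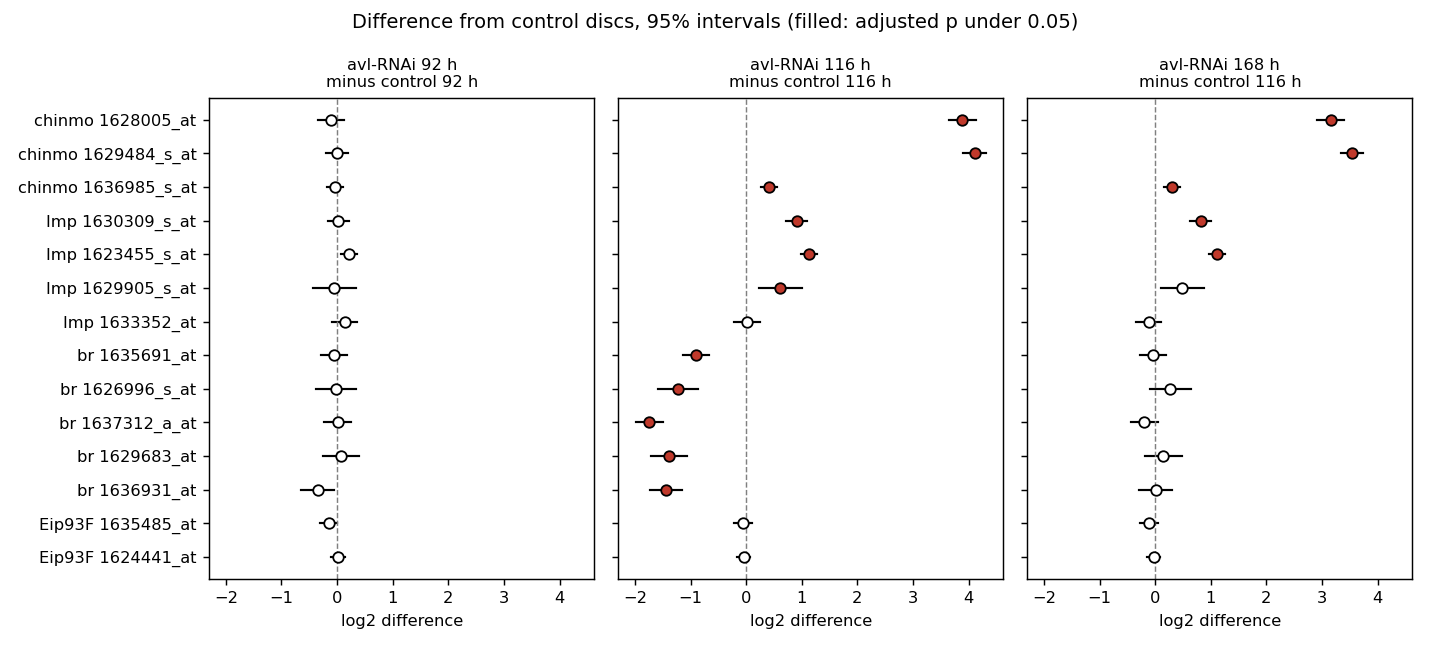
Log2 differences (x axis) of the 14 probe sets (rows) for avl-RNAi against control discs at 92 h and at 116 h, and for avl-RNAi discs at 168 h against control discs at 116 h. Bars are 95% intervals from the limma fit and filled points are called at an adjusted p under 0.05; no point is filled at 92 h, at 116 h the filled points of chinmo and Imp lie to the right of 0 and those of br to the left, and at 168 h br lies near 0.

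The change of the knockdown difference between 92 and 116 h was tested as an interaction of genotype and age. It was called for 10 of the 14 probe sets, where 12.9% of all probe sets were called. The 5 positive calls were all 3 of chinmo and 2 of Imp, where 5.68% of all probe sets had a positive call, and the 5 negative ones were br, where 7.26% had a negative call. The estimates for chinmo were 3.99 ± 0.16 (adjusted p = 2.16e-09) on 1628005_at and 4.11 ± 0.13 (adjusted p = 5.27e-10) on 1629484_s_at, the 7th and the 5th from the highest of all probe sets. For Imp they were 0.88 ± 0.12 and 0.92 ± 0.094, and Imp 1629905_s_at gave 0.67 ± 0.26 with an adjusted p of 0.112. For br they ran from -0.85 ± 0.16 (adjusted p = 0.00202) on 1635691_at to -1.76 ± 0.16 (adjusted p = 5.18e-06) on 1637312_a_at.

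Within the avl-RNAi genotype, chinmo was still higher at 116 h than at 92 h, Imp showed no called difference and br no called rise. Chinmo 1628005_at was higher by 1.28 ± 0.11 (2.43-fold, adjusted p = 1.49e-06) and 1629484_s_at by 1.31 ± 0.094 (adjusted p = 2.56e-07) at 116 h than at 92 h, with no overlap of the ages. Imp differed by -0.01 ± 0.088 on 1630309_s_at, with a 95% interval of -0.20 to 0.18. Br 1637312_a_at was lower at 116 h by 0.48 on the log2 scale (a difference of -0.48 ± 0.11, adjusted p = 0.00495), and the other 4 br probe sets, at -0.30 to 0.11, did not pass the test. In total 4 of the 14 probe sets were called, 3 higher and 1 lower, where 26.4% of all probe sets were called (11.3% higher and 15.1% lower).

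The dim chinmo 1636985_s_at was the remaining call (0.25 ± 0.067, adjusted p = 0.0123), which ended without avl-RNAi 92 h replicate 2 (adjusted p = 0.0605). With the tissue covariates 2 calls were left, those of the bright chinmo probe sets (1.81 ± 0.18 and 1.44 ± 0.18), and br 1637312_a_at gave -0.73 ± 0.24 with an adjusted p of 0.0882. Muscle array means were 7.20 to 7.72 at 116 h, against 8.47 to 8.95 at 92 h, in these discs.

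Avl-RNAi discs at 116 h were also set against control discs at 92 h, to see whether their values were those of younger normal discs. For Imp and for 3 br probe sets no difference was called, but chinmo was above the younger control level. Chinmo was higher by 1.18 ± 0.11 (2.26-fold, adjusted p = 2.63e-06) and 1.31 ± 0.094 (adjusted p = 1.85e-07), and every avl-RNAi array exceeded every 92 h control array. Imp 1630309_s_at differed by 0.02 ± 0.088. Br 1635691_at differed by -0.09 ± 0.11, with a 95% interval of -0.32 to 0.15.

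Br 1637312_a_at (-0.47 ± 0.11, adjusted p = 0.00587) and 1636931_at (-0.65 ± 0.14, adjusted p = 0.00215) were below even the 92 h control discs. With the dim chinmo probe set (0.21 ± 0.067, adjusted p = 0.0356) this made 5 of 14 called, 3 higher and 2 lower, where 26.6% of all probe sets were called (11.4% higher and 15.2% lower). The call of that dim probe set ended without avl-RNAi 116 h replicate 1 or 3, or without any 1 of the 92 h controls (adjusted p of 0.0688 to 0.104), and without both arrays with unusual gut transcripts (0.0819).

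By 168 h, an age at which only avl-RNAi discs were sampled, br had risen while chinmo stayed high. Chinmo 1628005_at read 10.04, 9.95 and 9.88 at 168 h, against 10.98, 10.58 and 10.50 at 116 h, a difference of -0.73 ± 0.11 (1.65-fold lower, adjusted p = 0.000350). Chinmo 1629484_s_at fell by 0.57 ± 0.094 (adjusted p = 0.000558). Br 1626996_s_at read 10.31, 10.31 and 10.04 at 168 h, against 8.43, 8.69 and 9.06 at 116 h, a difference of 1.49 ± 0.17 (2.82-fold, adjusted p = 2.77e-05).

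The ages were apart on all 5 br probe sets and on both bright chinmo probe sets. The other br rises were 0.87 ± 0.11 (1635691_at), 1.55 ± 0.11 (1637312_a_at), 1.53 ± 0.15 (1629683_at) and 1.45 ± 0.14 (1636931_at). Imp did not pass the test, with differences of -0.13 to -0.03. Called were 7 of the 14 probe sets, 5 higher and 2 lower, where 20.7% of all probe sets were called (12.3% higher and 8.35% lower). None of these 7 calls was kept with the tissue covariates, in which the br differences were 0.86 to 1.51 and chinmo 1628005_at gave 0.05 ± 0.26. The median standard error over all probe sets was 0.22 in that fit and 0.074 in the fit without covariates. Muscle array means were 5.52 to 5.83 at 168 h, against 7.20 to 7.72 at 116 h. Of 13 wing disc markers 7 were higher and 2 lower at 168 h, with array means of 8.99 to 9.08, against 8.66 to 8.90 at 116 h. Of 7 haemocyte markers 3 were higher and 0 lower (6.80 to 6.96 at 168 h, against 5.46 to 6.996 at 116 h, in array means), and of 4 tracheal markers 0 were higher and 3 lower (9.42 to 9.46 at 168 h, against 9.64 to 9.79 at 116 h). The part of these 3 marker lists in the result was not tested.

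**Figure D3:**
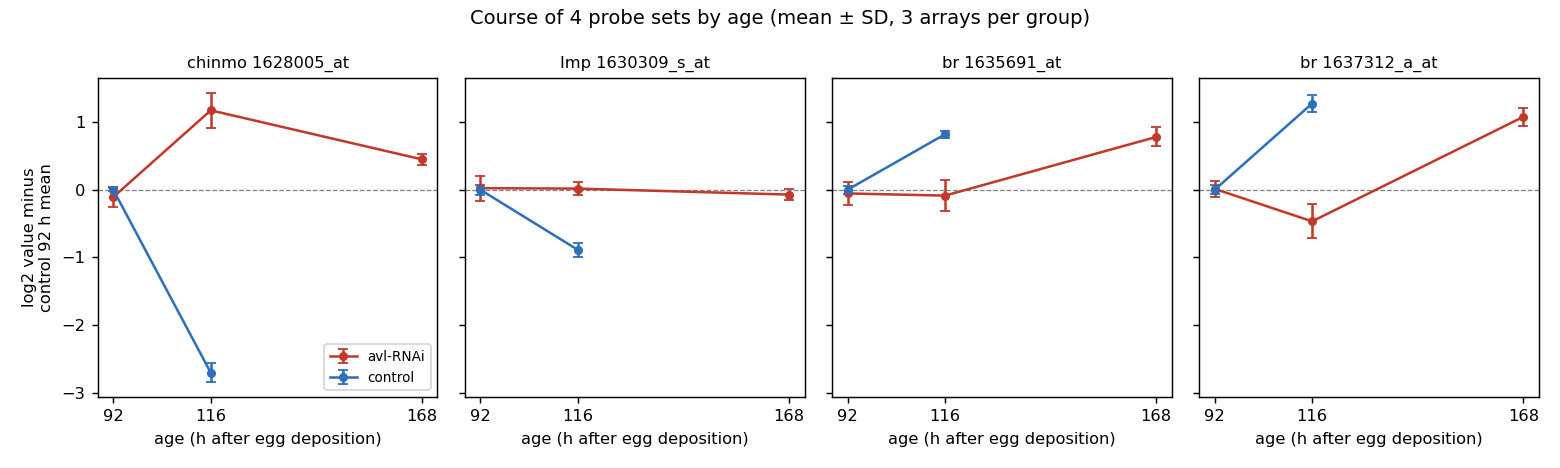
Group means of the log2 values of chinmo 1628005_at, Imp 1630309_s_at, br 1635691_at and br 1637312_a_at, as differences from the control mean at 92 h (y axis), against hours after egg deposition (x axis), with avl-RNAi discs in red, control discs in blue and bars for the SD of 3 arrays. The genotypes start together at 92 h and part by 116 h, and by 168 h br in avl-RNAi discs comes near the level of the 116 h controls while chinmo does not.

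Set against control discs at 116 h, avl-RNAi discs at 168 h showed no called br difference and a large chinmo difference. Br 1635691_at read 12.35, 12.26 and 12.07 in avl-RNAi discs at 168 h, against 12.23, 12.33 and 12.24 in control discs at 116 h (-0.04 ± 0.11, 95% interval -0.28 to 0.20). The intervals of the other br probe sets were -0.10 to 0.64 (1626996_s_at), -0.44 to 0.05 (1637312_a_at), -0.19 to 0.48 (1629683_at) and -0.29 to 0.30 (1636931_at). A br difference as large as the one at 116 h lay outside the interval of each probe set.

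Chinmo 1628005_at read 10.04, 9.95 and 9.88 in avl-RNAi discs at 168 h, against 6.84, 6.92 and 6.65 in control discs at 116 h, and was higher by 3.16 ± 0.11 (8.93-fold, adjusted p = 1.90e-10). Chinmo 1629484_s_at was higher by 3.54 ± 0.094 (11.6-fold, adjusted p = 1.07e-11). Imp was higher by 0.82 ± 0.088 (adjusted p = 1.31e-05) on 1630309_s_at and by 1.11 ± 0.067 (adjusted p = 4.06e-08) on 1623455_s_at, while 1629905_s_at gave 0.49 ± 0.18 with an adjusted p of 0.0793. With the dim chinmo probe set (0.30 ± 0.067) 5 of 14 were called, all higher, where 19% of all probe sets were called (9.45% higher). With the tissue covariates 4 calls were left, and that of the dim chinmo probe set ended (0.17 ± 0.093, adjusted p = 0.413). Of 8 muscle genes 2 were called higher and 5 lower, and of 13 wing disc markers 4 higher and 4 lower. Of 4 adult muscle precursor markers 0 were higher and 3 lower. The part of the wing disc and adult muscle precursor markers was not tested. The comparison sets different ages side by side, so age and genotype cannot be told apart in it.

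In these old avl-RNAi discs both the bright chinmo probe sets and br lay above their levels in control discs at 92 h. In control discs at 116 h br lay above those levels and chinmo below them. There were no control discs at 168 h, so age and genotype cannot be told apart here either. Relative to control discs at 92 h, chinmo 1628005_at was higher by 0.45 ± 0.11 (adjusted p = 0.00640), chinmo 1629484_s_at by 0.74 ± 0.094, and the 5 br probe sets by 0.78 to 1.59. This comparison called 8 of the 14 probe sets, 7 higher and 1 lower, where 31.5% of all probe sets were called (15.7% higher and 15.8% lower). The lower one was Eip93F 1635485_at (-0.23 ± 0.072, adjusted p = 0.0265), the only call of that gene in the 9 comparisons. With the tissue covariates limma called 0 of the 14. In that fit chinmo 1628005_at gave 1.45 ± 0.31 (adjusted p = 0.0580) and chinmo 1629484_s_at gave 1.03 ± 0.32 (0.181). The br differences were 0.20 to 1.60. The median standard error over all probe sets was 0.26 in that fit and 0.074 in the fit without covariates. The Eip93F arrays overlapped between the groups, with 3.63 to 3.85 in avl-RNAi discs at 168 h and 3.79 to 4.04 in control discs at 92 h, and the Eip93F call was kept in 14 of 22 alternative analyses. It ended without avl-RNAi 168 h replicate 1 or 3 and without 92 h control replicate 2 or 3 (adjusted p of 0.0803 to 0.116), and without both arrays with unusual gut transcripts (0.120).

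**Figure D4:**
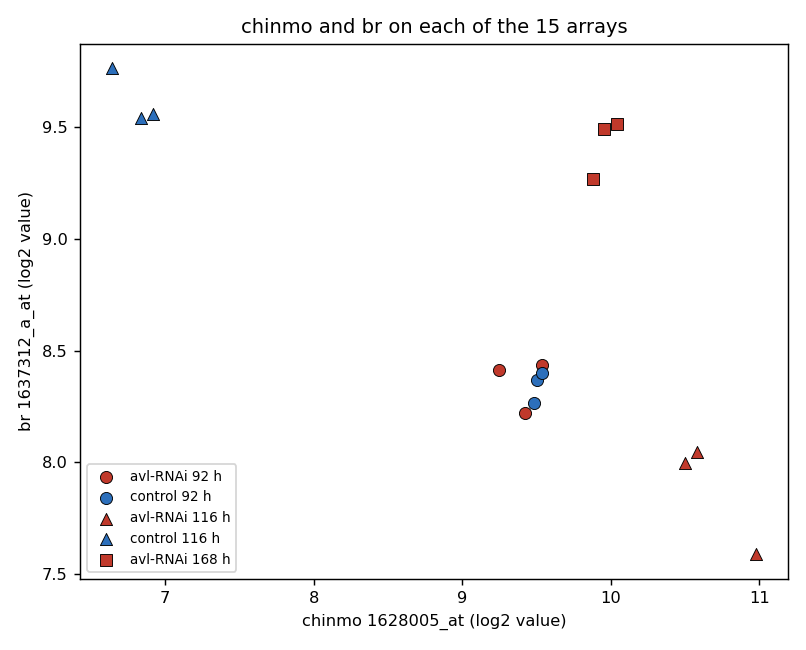
Log2 value of br 1637312_a_at (y axis) against that of chinmo 1628005_at (x axis) on the 15 arrays, with red for avl-RNAi and blue for control discs and a symbol for each age. Control discs at 116 h lie at low chinmo and high br, the 92 h arrays of both genotypes lie together, and the 3 avl-RNAi arrays at 168 h lie at high values of both.

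In avl-RNAi discs at 116 h replicate 1 had the highest value on both bright chinmo probe sets and the lowest value on all 5 br probe sets. In the other 4 groups the array with the highest chinmo 1628005_at had the lowest value on 0, 0, 1 and 2 of the 5 br probe sets. Replicate 1 of the avl-RNAi discs at 116 h also had the lowest wing disc marker mean of its group (8.66, against 8.90 and 8.84). Its muscle mean was the highest (7.72, against 7.20 and 7.42). With 3 arrays a group, these are descriptions and were not tested.

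The bright probe sets of each gene put the groups in a similar order. For chinmo the order was avl-RNAi 116 h, then avl-RNAi 168 h, then both 92 h groups, whose arrays overlapped, and last control 116 h, with gaps between all the other neighbours. For Imp the 4 groups other than control 116 h overlapped as neighbours, and control 116 h stood below them on all 3 bright probe sets. For br the pair control 116 h and avl-RNAi 168 h stood above the other 3 groups on all 5 probe sets. Within that pair the arrays overlapped on 4 of 5 probe sets, and on 1637312_a_at control 116 h was above avl-RNAi 168 h. The 116 h comparison, the ageing of controls and the comparison with 168 h discs share the 116 h control arrays, so their values are not independent of each other.

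Genes that work with these factors were followed by list, and the lists were chosen with earlier results of these data known. Of 10 measured temporal partners, genes that accompany or oppose Chinmo and Imp in timing, 0 were called higher and 6 lower in avl-RNAi discs at 116 h, and the unadjusted counts were the same. Over all probe sets 9.58% were called higher and 14.2% lower. The median difference was -0.37, beside -0.01 over all probe sets. Syp, which encodes Syncrip, the antagonist of Imp in neural stem cells, read 9.87, 10.38 and 10.21 in avl-RNAi discs, against 11.12, 10.91 and 11.23 in control discs. The genotypes were apart, and the difference was -0.94 ± 0.12 (adjusted p = 3.20e-05, with -0.77 ± 0.19 on its other probe set). Blimp-1, which encodes an ecdysone-induced repressor, read 5.12, 5.12 and 4.98 in avl-RNAi discs, against 6.88, 7.55 and 8.46 in control discs. Its difference was -2.55 ± 0.29 (adjusted p = 1.62e-05).

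The paralogous pipsqueak-type genes danr and dan were dim, below the array median on all arrays, as was dati. Danr was lower by a difference of -0.71 ± 0.078, and dati differed by -0.52 ± 0.11 on the probe set that was called and by 0.08 ± 0.051 on the other. Lin-28, which encodes an RNA-binding protein of early stages, differed by 0.01 ± 0.056 and was also dim. With the tissue covariates 3 of the 6 temporal partner calls were left.

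Syp and Blimp-1 rose with age in control discs, by 0.97 ± 0.12 and 2.54 ± 0.29. In avl-RNAi discs they differed by 0.10 ± 0.12 and 0.07 ± 0.29 between 116 and 92 h and did not pass the test, and at 168 h they were higher than at 116 h by 0.66 ± 0.12 and 1.96 ± 0.29. Blimp-1 read 7.14, 7.45 and 6.52 in avl-RNAi discs at 168 h. As for br, the rise in these discs came after 116 h.

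In the hormone cascade list, 2 of 12 measured genes were higher and 3 lower in avl-RNAi discs at 116 h, with a median difference of -0.09, beside 9.58% higher and 14.2% lower over all probe sets. Ftz-f1, a nuclear receptor gene of the response to falling ecdysone, read 8.43, 8.47 and 8.48 in avl-RNAi discs, against 6.76, 6.27 and 6.19 in control discs (2.05 ± 0.11, adjusted p = 9.45e-09, and 2.38 ± 0.086 on its other probe set). Eip78C, another ecdysone-induced nuclear receptor gene, read 4.15, 4.26 and 4.26 in avl-RNAi discs, against 6.28, 6.43 and 6.78 in control discs (-2.28 ± 0.11, adjusted p = 2.59e-09). Neither overlapped between the genotypes.

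Usp, the partner of the ecdysone receptor, differed by -0.22 ± 0.072 (adjusted p = 0.0418) and EcR by 0.19 ± 0.12 (adjusted p = 0.325) at 116 h. At 92 h EcR was the 1 gene of the list that was called, where 3.43% of all probe sets were called. Its difference was -0.49 ± 0.12 (adjusted p = 0.0431), and this call was not put through the alternative analyses. Hr39 differed by -0.30 ± 0.081 on its brightest probe set (adjusted p = 0.013) at 116 h. On its other probe sets with clear signal it differed by -0.42 ± 0.094 (adjusted p = 0.00373) and -0.39 ± 0.080 (adjusted p = 0.00214). A dim Hr39 probe set differed by -0.04 ± 0.077 (adjusted p = 0.808). Kr-h1, the juvenile hormone response gene, differed by -0.08 ± 0.12. The second gene called higher, named after its value was seen, was Met (0.25 ± 0.084, adjusted p = 0.0463), and the count of higher genes was 1 in 17 of 24 alternative analyses. The call of usp ended without avl-RNAi 116 h replicate 1 (adjusted p = 0.172) and without control 116 h replicate 2 (0.165). That of the brightest Hr39 probe set ended without the same arrays (0.0614 and 0.0664). Without both arrays with unusual gut transcripts the adjusted p was 0.178 for usp and 0.0862 for that Hr39 probe set.

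JAK/STAT signalling is reported to act upstream of chinmo in the fly testis and eye. The list held 8 genes of that pathway, chosen with earlier results of these data known, and 5 were measured. Of these, 4 were called higher and 0 lower at 116 h, with the same unadjusted counts. This is a description, beside 9.58% higher and 14.2% lower over all probe sets. The median difference was 1.33, beside -0.01 over all probe sets. Upd1, which encodes a ligand, read 9.72, 9.32 and 9.70 in avl-RNAi discs, against 6.17, 6.07 and 6.22 in control discs (3.43 ± 0.11, adjusted p = 6.32e-11). The ligand gene upd2 read 7.78, 7.74 and 8.03 in avl-RNAi discs, against 4.63, 4.59 and 4.59 in control discs (3.25 ± 0.11, adjusted p = 5.68e-11). No arrays overlapped for either. Ken, which encodes a BTB zinc finger repressor, was higher by 1.33 ± 0.082 and dome, the receptor gene, by 0.44 ± 0.052. Stat92E, the transcription factor gene, differed by 0.06 ± 0.077 (adjusted p = 0.646).

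Upd1 and ken shared the fall of chinmo in ageing control discs (-1.15 ± 0.11 and -0.81 ± 0.082), whereas upd2 was near the bottom of its range at both control ages and differed by 0.00 ± 0.11. At 168 h upd1 and upd2 were below their 116 h values in avl-RNAi discs, by differences of -0.88 ± 0.11 and -1.59 ± 0.11.

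**Figure D5:**
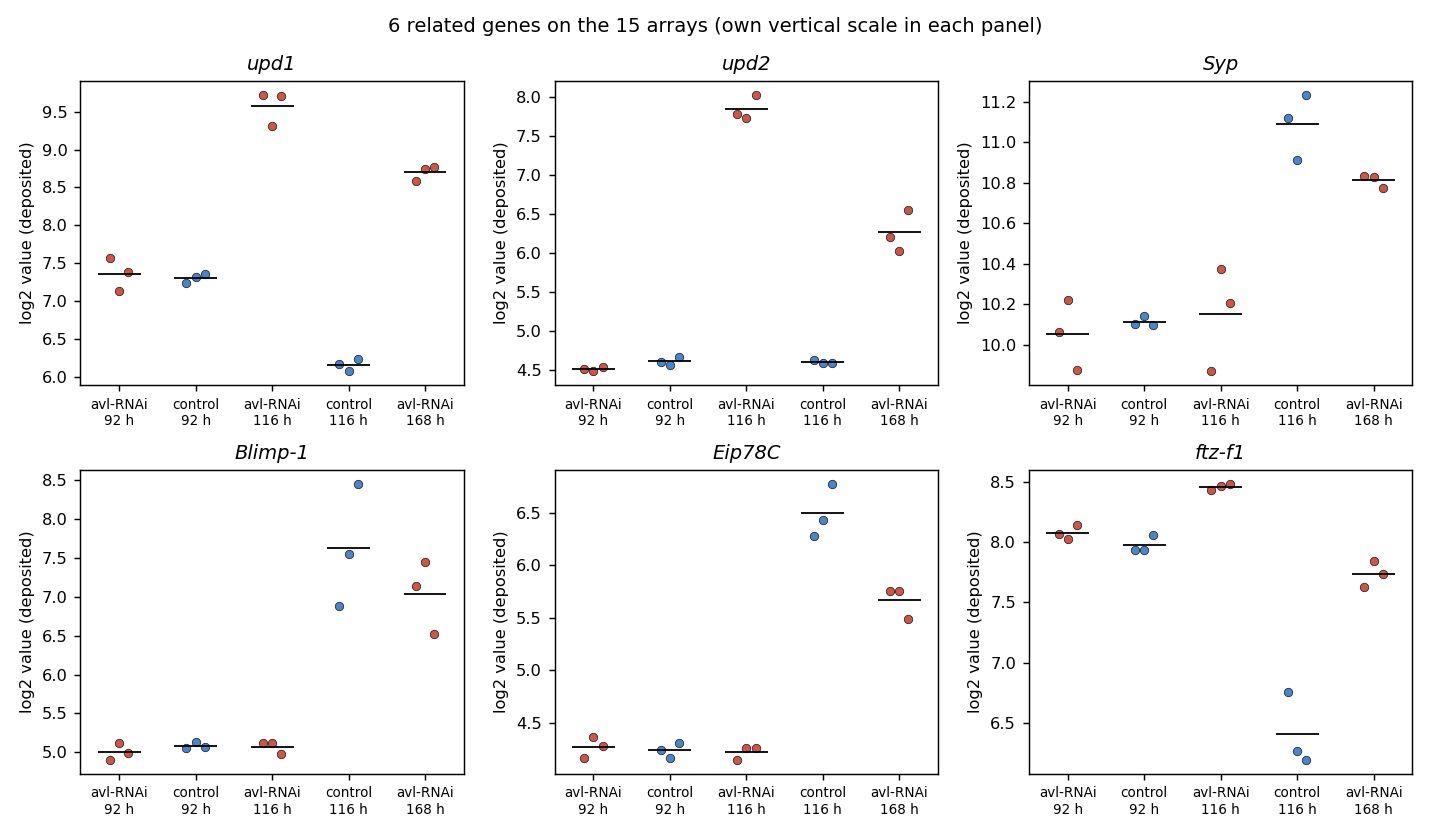
Deposited log2 values (y axis, own scale in each panel) of upd1, upd2, Syp, Blimp-1, Eip78C and ftz-f1 in the 5 groups (x axis), with points for replicates 1 to 3, bars for group means, avl-RNAi discs in red and control discs in blue. Syp, Blimp-1 and Eip78C are higher in the avl-RNAi discs of 168 h and the control discs of 116 h than in the other groups, and ftz-f1 and upd1 are lowest in control discs at 116 h.

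The genes whose course was most like that of each factor were found over the 5 group means, each centred on its own mean, by the root mean square difference in log2 units. For chinmo the closest 5 of the named genes were Osi14 (0.438), Cda5 (0.553), yellow-b (0.583), upd1 (0.587) and pigs (0.596). Even the closest was some way off: Osi14 averaged 10.81 in avl-RNAi discs and 6.92 in control discs at 116 h, while the avl-RNAi mean at 168 h was 10.67, where chinmo had come down. For Imp the closest were Abca3 (0.078), rgn (0.097), ea (0.107), alpha-Est10 (0.112) and the muscle gene sls (0.131).

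For br they were Hr3 (0.044), kni (0.068), Sobp (0.075), Drip (0.086) and Syp (0.088). The place of Hr3, a nuclear receptor gene of the ecdysone response, rested on 1 array, since it read 3.32, 3.65 and 5.69 in control discs at 116 h. For Eip93F they were Snx17, rhi, BEAF-32, Iris and Or65a (0.016 to 0.018), which varied as little as Eip93F itself. Leaving out 1 array at a time kept 4 to 5 of the 5 names for chinmo, 3 to 5 for Imp, 2 to 5 for br and 0 to 4 for Eip93F.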

How the data were processed

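RNA of 15 wing disc samples (200 ng each, biotin label, Affymetrix 1-colour arrays, per the labels) was analysed. The authors deposited 1 table of log2 values, normalized between arrays by a method not given in the sources used here; base 2 was taken from the span of the values. The submitters' processing notes name Partek and limma without role or version. There is no read depth, and precision is limited by having 3 arrays a group. All columns matched a sample (0 without one).

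Gene symbols came from the platform annotation, updated through gene identifiers by RefSeq for 13543 probe sets: 13646 had 1 symbol, 402 several and 4904 none. The values were fitted as deposited with lmFit and eBayes (limma 3.58.1, R 4.3.3) on the 18769 probe sets that are not controls, with 5 group means and 10 residual degrees of freedom. In each of 9 comparisons 2-sided p-values were adjusted over all probe sets by Benjamini-Hochberg. Errors are standard errors unless called SD.

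In simulated data for the 116 h comparison, 200 of 18769 probe sets were shifted. At a shift of 0.5, 78% were recovered and 6.02% of calls were false. At a shift of 1 these were 96% and 4.95%. In the data 4468 probe sets were called at 116 h. Recovery after the adjustment depends on the share of changed probe sets, so these rates need not hold for the data.

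Named were all probe sets of the 4 genes, the 5 named genes (1 probe set each, the one with the highest mean) most like each in their centred group means, and up to 4 genes per list with the smallest adjusted p at 116 h. Other list genes (dan, lin-28, EcR, Kr-h1, Met, Stat92E) were named outside this rule, after their values were seen. The genes and lists were chosen with earlier results of these data known. Replicate numbers were not taken to pair samples. Alternatives were quantile normalization, a filter on the lowest 25% of probe sets, a trended robust prior, only the compared groups, the replicate block, 1 probe set per gene, tissue covariates, adjusted p under 0.01, each array left out, and both arrays with unusual gut transcripts left out.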

Additional observations from a re-analysis of the deposited data

Results flagged for a closer look

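The knockdown difference at 116 h differed from that at 92 h, by the interaction test of limma at an adjusted p under 0.05, for 10 probe sets. In log2 units the estimates for chinmo were 3.99 on 1628005_at, 4.11 on 1629484_s_at and 0.45 on 1636985_s_at. For Imp they were 0.88 on 1630309_s_at and 0.92 on 1623455_s_at. For br they were -0.85 on 1635691_at, -1.20 on 1626996_s_at, -1.76 on 1637312_a_at, -1.46 on 1629683_at and -1.09 on 1636931_at. Groups of 3 arrays are too small for a test of single outlying arrays, so none was made.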

How the results depend on the processing

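Of 126 tests of the 14 probe sets over 9 comparisons, 61 were called, 56 of them under every alternative except the tissue covariates and 33 under all that could be run for them. Without 1 array the number of called probe sets was 10 to 11 at 116 h (11 with all arrays), 10 to 11 for the interaction (10), 10 to 11 for the ageing of controls (11), 3 to 4 for avl-RNAi 116 h against 92 h (4), 5 to 6 for avl-RNAi 168 h against control 116 h (5) and 7 to 8 for avl-RNAi 168 h against control 92 h (8). With the tissue covariates 34 of the 61 calls were kept. The count was 3 for the ageing of controls, 2 for avl-RNAi 116 h against 92 h, 0 for avl-RNAi 168 h against 116 h and 0 for avl-RNAi 168 h against control 92 h. Of the called differences of the 4 genes, only that of chinmo 1628005_at changed sign with the covariates, to 0.048 for avl-RNAi 168 h against 116 h (adjusted p = 0.981). The median standard error rose to 0.22 there and to 0.26 against control 92 h, from 0.074.

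Of 30 same-number pairs of arrays, 9 had a correlation of deviations over 0.1 (range -0.38 to 0.48). Pairs with different numbers were not set beside them, so these values cannot decide whether arrays of the same number belong together. With the replicate block all 61 calls were kept, and the counts were 0 at 92 h, 11 at 116 h, 10 for the interaction, 11 for the ageing of controls, and 4, 7, 5, 5 and 8 for the others. The block ended the call of usp (adjusted p = 0.0505).

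Counts over all probe sets moved by over 1.5 times in these cases. At 92 h, 643 were called, against 176 with the covariates, 278 at adjusted p under 0.01, 317 without both arrays with unusual gut transcripts, 410 with only the compared groups and 340 at the fewest without 1 array. The covariates gave 1287 in place of 4468 at 116 h, 382 in place of 3737 for the ageing of controls, 1740 in place of 4957 for avl-RNAi 116 h against 92 h, 68 in place of 3884 for 168 h against 116 h, 1081 in place of 3570 for 168 h against control 116 h and 190 in place of 5917 for 168 h against control 92 h. The interaction gave 1574 in place of 2429 without both arrays with unusual gut transcripts. An adjusted p under 0.01 gave 1363 for the interaction, 2424 for 168 h against 116 h and 2347 for 168 h against control 116 h. The cause was not tested.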
